A study of Homo sapiens with 16 samples.

Results

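The MYC, MAX and MXD network is a group of transcription factors that find DNA only as pairs. The 10 genes described here are MYC, MYCL, MAX, MXD1, MXI1, MXD4, MNT, MGA, MLX and MLXIP. They were taken by name, as the rows of the deposited table whose Ensembl ID carries one of these symbols in GENCODE. No threshold on a measured value was applied in taking them, although earlier results of these data were known when the network was chosen. All 10 were found among the 28951 genes of the table, and all 10 lay above the filter on low values that left 23968 genes for testing.

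MYC and MYCL bind the sequence called the E-box when paired with MAX, and switch on genes for ribosome building, nucleotide supply and cell division. The MXD proteins (MXD1, MXI1 and MXD4) and MNT also pair with MAX and bind the same sequence, but bring the SIN3 and histone deacetylase complex and repress transcription, while MGA joins MAX to a polycomb complex. MLX is a relative of MAX that pairs with MLXIP (also called MondoA), a sensor of glucose metabolites, and with several of the MXD proteins and MNT.

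The RNA came from 4 human lines of non-small cell lung cancer, grown in RPMI medium with bovine serum. The treated cultures received the combination, which was 5 µM MYCi975, a small molecule that targets the MYC protein, together with 25 µM TMP195, an inhibitor of class IIa histone deacetylases, for 48 hours. The control cultures of the same lines received the vehicle DMSO for 48 hours. The series names H460 and H1703 as responsive and HCC827 and H441 as non-responsive lines, and cultures with a single agent were not analysed here. Each line and treatment had 2 libraries, and the labels do not say that these came from separate cultures, so p-values measure the spread between libraries, which may be technical. All statements are about RNA, since protein was not analysed here.

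The libraries held 8493271 to 13604150 reads in the listed genes, and mitochondrially encoded genes took 12.12 to 22.65% of them. That share moved with treatment. It was 18.19 and 17.44% with the combination in H460, against 15.69 and 14.3% with vehicle, and 17.13 and 15.36% with the combination in H1703, against 13.53 and 12.12% with vehicle. HCC827 had 18.72 and 17.16% with the combination, against 21.19 and 22.65% with vehicle, and H441 had 17.88 and 18.1% with the combination, against 17.28 and 17.75% with vehicle. The part of this share in the changes given here was not tested. Libraries of the same group correlated at 0.9736 to 0.9821 across genes, which are not independent replicates. EGFR, PDGFRA and SFTPA1 each set their line apart in both treatments. The other marks of H441, NAPSA and SFTPB, were highest in H441 within each treatment, SFTPB by little with the combination. EGFR reached 130445 to 138333 normalised reads in HCC827 and at most 5428 in the other lines. PDGFRA held 4812 and 4776 in H1703 with the combination, against 11560 and 10723 with vehicle, and at most 1.10 elsewhere. The surfactant gene SFTPA1 held 113 and 200 in H441 with the combination, against 1536 and 1688 with vehicle, and at most 1.11 elsewhere. NAPSA held 497 and 530 in H441 with the combination, against 974 and 997.5 with vehicle, and at most 61.6 elsewhere. SFTPB held 19.5 and 8.31 in H441 with the combination, against 59.5 and 99.3 with vehicle. These combination values lay below the 19.7 and 38.1 of HCC827 with vehicle. PDGFRA, SFTPA1, NAPSA and SFTPB were thus lower with the combination in these lines. The epithelial gene CDH1 was at or near 0 in H460 and H1703 (0 to 9.26 normalised reads), and the keratin KRT8 was low in H1703 (57.4 to 75.3). Of 9 markers of blood, vessel, fibroblast and liver cells 4 were in the table, with 21 to 72 reads in all per combination library and 4 to 104 per vehicle library. Of these, COL3A1 held 122 reads over the combination libraries of H460 and 194 over its vehicle libraries, and at most 9 in any group of the other lines. PTPRC, CD3E, MS4A1, HBB and ALB were not among the listed genes, 2 of the 4 (CD68 and VWF) were called higher with the combination in H1703, and their part in any result was not tested.

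Values are given as normalised reads, the recovered whole reads of a library over its size factor. Per kilobase of merged exon, the unit used wherever genes are compared with each other, MYC was the most abundant member, with a median of 487.9 normalised reads over the 16 libraries. MAX (166), MLX (149) and MGA (148) followed, then MLXIP (88.1) and MXI1 (73.1). The repressors MNT (33.7), MXD4 (20.4) and MXD1 (14.8) were lower, and MYCL had a median of 3.18. MYCN was not among the genes of the table.

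**Figure D1:**
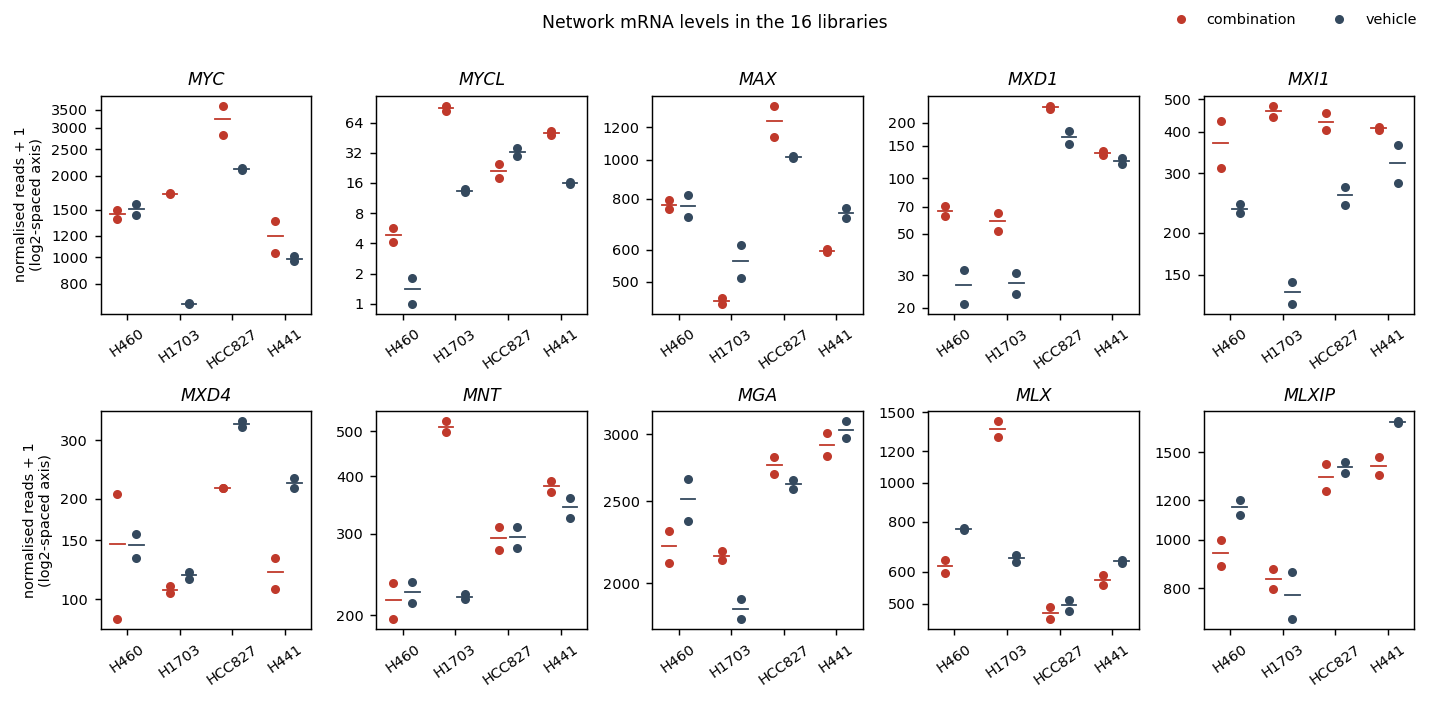
Normalised reads plus 1 of each of the 10 members (log2-spaced vertical axis, one panel per gene) in the 4 lines. Points are the 2 libraries of a group, combination left in red and vehicle right in dark grey, and bars are their means. In H1703 MYC, MYCL, MXD1, MXI1, MNT, MGA and MLX passed the test as higher with the combination (17.9% of all genes). MAX passed there as lower (17.6% of all genes).

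With vehicle, all 10 members differed among the 4 lines by the moderated F test of limma with Benjamini-Hochberg adjustment (largest adjusted p = 0.000148 for MNT), against 73.4% of all genes tested. All 10 also differed between the responsive and the non-responsive lines, against 56.3% of all genes. This contrast sets class means against the spread between libraries of a line, so its p-values do not measure the spread between lines. In that contrast of class means 9 members were lower in the responsive lines, where 27.6% of all genes were lower. MLX was higher, as were 28.8% of all genes (0.33 ± 0.063 on the log2 scale). Not every responsive line lay below every non-responsive one, as MYC was higher in H460 than in H441 (0.60 ± 0.11, adjusted p = 0.0001245, limma). The widest gap among the 10 was that of MXD1, at -2.37 ± 0.15 (adjusted p = 3.44e-11). MXD1 averaged 25.4 ± 7.67 normalised reads in H460 and 26.3 ± 4.89 in H1703, against 166 ± 18.7 in HCC827 and 123 ± 7.13 in H441 (SD, n = 2 each). The lines of a class did not differ in MXD1 beyond their spread (adjusted p = 0.862 between H460 and H1703 and 0.118 between HCC827 and H441).

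Between single lines, members that differed with vehicle numbered 7 of 10 for H460 against H1703 (46.4% of all genes), 8 for H460 against HCC827 (50.3%), 9 for H460 against H441 (54.2%), 10 for H1703 against HCC827 (50.7%), 8 for H1703 against H441 (52.1%) and 6 for HCC827 against H441 (44.7%). The order of the vehicle levels was not the same for all members. MYC was highest in HCC827 (2115 ± 17.1 normalised reads), followed by H460 (1504 ± 99.2), H441 (990 ± 29.4) and H1703 (675 ± 1.18), and every neighbour in that order differed (largest adjusted p = 0.00101, limma). MLXIP, highest in H441 (1723 ± 7.31), then HCC827, H460 and H1703 (775 ± 119), also had all neighbours apart. H1703 held the lowest vehicle level of MYC, MAX, MXI1, MXD4, MNT, MGA and MLXIP, although it did not differ from H460 for MXD4 (adjusted p = 0.366) or MNT (adjusted p = 0.874). MAX did not differ between H460 and H441 (adjusted p = 0.702), and MGA did not differ between HCC827 and H460 (adjusted p = 0.532). For MXI1 the neighbours H441 and HCC827, and HCC827 and H460, did not differ (adjusted p = 0.102 and 0.508), while H460 lay below H441 (-0.44 ± 0.15 on the log2 scale, adjusted p = 0.0173). MLX ran the other way, highest in H460 (768 ± 6.38) and lowest in HCC827 (495 ± 21.5), with H1703 and H441 between them and not apart (adjusted p = 0.835). MYCL was at 0.40 ± 0.57 normalised reads in H460, which is 1 read in 2 libraries, and at 31.7 ± 4.01 in HCC827. A p above the threshold does not show that such levels are equal.

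The windows around the start sites of the members are shown because the E-box, spelled CACGTG and its own reverse complement, is the letter sequence that MYC and MAX pairs are known to bind. RefSeq (GRCh38.p14) gave 14 windows for 9 members, each from 250 bases before to 50 after a start, and 3 of them, those of MLX, MNT and MXD4, held the motif, as did 7.26% of 35116 promoter windows of the same length. It lay 50 bases before the start in MLX, 193 before it in MNT and 238 before it in MXD4. MLX and MNT are members that rose in H1703, as are MYCL, MXD1 and MGA, whose windows hold no match. MXD4 is the member that fell in H441, a call that most fits without 1 library did not keep. The MXI1 window is given beside them as that of a member that rose in 3 lines and holds no match in its 3 windows. The capitals mark the E-box, and a match is a description and not a bound site.
MLX, chr17:42566850-42567149, plus strand: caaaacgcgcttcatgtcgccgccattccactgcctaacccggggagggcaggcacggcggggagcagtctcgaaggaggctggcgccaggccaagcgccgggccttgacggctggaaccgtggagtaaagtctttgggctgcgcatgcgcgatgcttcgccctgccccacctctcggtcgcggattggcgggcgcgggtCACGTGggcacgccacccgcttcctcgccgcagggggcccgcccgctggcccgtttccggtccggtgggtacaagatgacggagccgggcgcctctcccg
MNT, chr17:2401011-2401310, minus strand: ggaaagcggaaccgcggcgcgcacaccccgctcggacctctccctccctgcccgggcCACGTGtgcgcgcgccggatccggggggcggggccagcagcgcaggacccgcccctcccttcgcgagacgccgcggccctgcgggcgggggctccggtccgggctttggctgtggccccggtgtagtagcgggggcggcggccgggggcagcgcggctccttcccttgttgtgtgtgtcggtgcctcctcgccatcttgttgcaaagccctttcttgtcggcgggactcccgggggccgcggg
MXD4, chr4:2262060-2262359, minus strand: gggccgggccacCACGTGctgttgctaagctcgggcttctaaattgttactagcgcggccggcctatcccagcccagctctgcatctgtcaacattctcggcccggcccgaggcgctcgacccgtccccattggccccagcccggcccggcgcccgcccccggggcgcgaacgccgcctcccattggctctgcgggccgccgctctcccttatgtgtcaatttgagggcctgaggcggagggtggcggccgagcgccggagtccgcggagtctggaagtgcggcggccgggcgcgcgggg
MXI1, chr10:110207355-110207654, plus strand: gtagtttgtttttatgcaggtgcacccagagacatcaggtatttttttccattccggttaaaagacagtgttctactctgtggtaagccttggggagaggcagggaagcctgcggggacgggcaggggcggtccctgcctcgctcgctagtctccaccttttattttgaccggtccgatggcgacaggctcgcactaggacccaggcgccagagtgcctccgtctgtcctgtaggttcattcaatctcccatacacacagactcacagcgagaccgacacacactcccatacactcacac

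The first comparison asked how the network's mRNAs stood after 48 hours with the combination in each line. H1703 moved most: MYC, MYCL, MXD1, MXI1, MNT, MGA and MLX rose there and MAX fell, so that 8 of 10 members passed the test, against 35.5% of all genes (17.9% higher and 17.6% lower). In H460 MYCL, MXD1 and MXI1 rose and MLX and MLXIP fell, which made 5 of 10 against 26.7% of all genes (14.1% higher and 12.6% lower). In HCC827 MYC and MXI1 rose (2 of 10 against 9.92% of all genes, of which 4.42% higher and 5.5% lower), and in H441 MYCL rose and MXD4 fell (2 of 10 against 4.63%, of which 2.77% higher and 1.86% lower). No member passed in all 4 lines. The members' median change was 1.06 in H1703 (0.082 over all genes tested), -0.061 in H460 (0.046), 0.034 in HCC827 (0) and 0.04 in H441 (0). In the mean over the 4 lines 8 of 10 passed, 6 higher and 2 lower, against 35.2% of all genes (18.4% higher and 16.7% lower). There MLX (0.13 ± 0.044) and MLXIP (-0.14 ± 0.051) did not pass in 5 and 10 of the 16 fits without 1 library, and MLX did not pass after median centring (0.021, adjusted p = 0.781). Each change is the combination mean less the vehicle mean in deposited log2 units. Its standard error comes from 1 limma fit of all 16 libraries, and p-values were adjusted over all genes tested, with a threshold of 0.05. The libraries are bulk cultures, so fewer cells with a transcript and less of it per cell cannot be told apart.

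**Figure D2:**
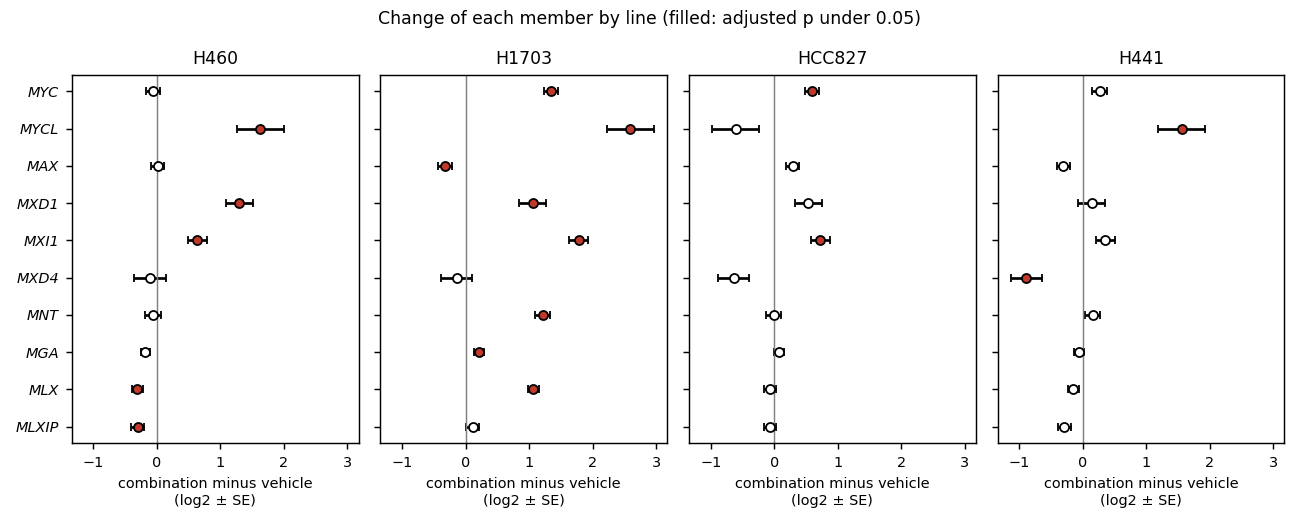
Change of each member with the combination (horizontal axis, log2, with standard error) in the 4 lines, filled where the adjusted p was under 0.05. In H1703 8 of 10 points are filled and the largest is MYCL at 2.60, while in HCC827 and H441 2 are filled in each.

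MYC (ENSG00000136997.18, chromosome 8, 127735434 to 127741434, plus strand) is the founding member and the protein that MYCi975 is directed at. In H1703 its mRNA stood at 1717 and 1719.8 normalised reads with the combination, against 675 and 676 with vehicle. HCC827 had 2819.6 and 3627 with the combination, against 2127 and 2103 with vehicle. In these 2 lines the combination libraries lay above the vehicle libraries. MYC thus rose in H1703 by 1.34 ± 0.11 (adjusted p = 1e-08, limma) and in HCC827 by 0.60 ± 0.11 (adjusted p = 0.00164). In H441, where the groups also lay apart, the libraries held 1039 and 1359 with the combination, against 969 and 1011 with vehicle, a change of 0.26 ± 0.11 that missed the threshold (adjusted p = 0.222). In H460 the groups overlapped, with 1389.5 and 1495 with the combination, against 1574 and 1434 with vehicle, a change of -0.060 ± 0.11 (adjusted p = 0.774). Across the 4 lines the responses of MYC differed (F = 28.6, adjusted p = 6.69e-06). The response of H460 minus that of H1703 was -1.40 ± 0.16, and that of H1703 exceeded that of HCC827 by 0.75 ± 0.16 and that of H441 by 1.08 ± 0.16 (largest adjusted p = 0.00179). Both classes of line thus held a line with a MYC rise, and the difference between classes was 0.21 ± 0.11 (adjusted p = 0.198). That difference passed the test without HCC827 combination replicate 2 (0.30, adjusted p = 0.0483) or without H441 combination replicate 2 (0.31, adjusted p = 0.0397). The rise in HCC827 did not pass without combination replicate 2 of that line (0.41, adjusted p = 0.065).

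MYCL (ENSG00000116990.11, chromosome 1, 39895426 to 39902256, minus strand), a relative of MYC known from small cell lung cancer, was the scarcest member and had the largest changes in H460, H1703 and H441. In H1703 it had 75 and 117 reads with the combination, against 12 and 18 reads with vehicle, and in H441 46 and 56 reads with the combination, against 13 and 14 with vehicle. HCC827 went the other way in value, with 14 and 25 reads with the combination, against 28 and 28 with vehicle. In H460 the gene was near its floor, with 3 and 4 reads with the combination, against 0 and 1 with vehicle, a ratio of 8.64 after scaling with a 95% counting interval of 1.11 to 389.5. The rises were 2.60 ± 0.37 in H1703 (adjusted p = 1.24e-05), 1.56 ± 0.37 in H441 (adjusted p = 0.0187) and 1.63 ± 0.37 in H460 (adjusted p = 0.00222). In HCC827 the change was -0.60 ± 0.37 (adjusted p = 0.378), and both H460 (2.23 ± 0.53) and H1703 (3.20 ± 0.53) responded more than HCC827 did (adjusted p = 0.00632 and 0.000162, limma). The H441 call did not pass when any 1 of that line's 4 libraries was left out (adjusted p = 0.0798 to 0.119), nor did the H460 call without vehicle replicate 1 (1.10, adjusted p = 0.0502). MYCL shares 226 exon bases with the antisense gene AL033527.2 on the other strand, which had 97 reads over all libraries against 454 for MYCL and rose by 2.13 in H1703 and 2.43 in H441. The kit keeps strand, but no source used here gives the strand setting of the counting, so reads of such partners cannot be told apart.

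MAX (ENSG00000125952.19, chromosome 14, 65006174 to 65102695, minus strand) is the partner that MYC, the MXD proteins, MNT and MGA all need. It moved little: in H1703 it had 440.8 and 454 normalised reads with the combination, against 615 and 511 with vehicle. The groups lay apart there and MAX fell by 0.32 ± 0.10 on the log2 scale (adjusted p = 0.0199, limma). Its changes elsewhere were 0.011 ± 0.10 in H460, 0.29 ± 0.10 in HCC827 and -0.31 ± 0.10 in H441 (lowest adjusted p = 0.0895). HCC827 and H441 differed in their responses (0.60 ± 0.15, adjusted p = 0.0382), as did H1703 and HCC827 (-0.61 ± 0.15, adjusted p = 0.00487). The fall in H1703 did not pass without vehicle replicate 1 (-0.19, adjusted p = 0.283), combination replicate 1 (adjusted p = 0.102) or combination replicate 2 (adjusted p = 0.055) of that line, and HCC827 passed without its combination replicate 1 (0.42, adjusted p = 0.0399). The H1703 fall also did not pass with quantile normalisation (-0.20, adjusted p = 0.153). The HCC827 change passed with quantile normalisation (0.36, adjusted p = 0.0297) and with limma voom on recovered reads (0.30, adjusted p = 0.0386). MAX shares 184 exon bases with the antisense gene AL139022.1, which had 3198 reads over all libraries against 12195 for MAX. That gene changed by -0.11 in H1703 (adjusted p = 0.66) and -0.53 in H441 (adjusted p = 0.0698), and reads of the pair cannot be told apart.

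Among the repressive partners of MAX, MXI1 (ENSG00000119950.21, chromosome 10, 110207605 to 110287365, plus strand) rose most widely. In H1703 it had 477 and 440 normalised reads with the combination, against 122 and 142 with vehicle. HCC827 had 403 and 452 with the combination, against 242 and 273 with vehicle. H460 had 310 and 429 with the combination, against 242 and 227 with vehicle. All combination libraries of these 3 lines lay above their vehicle libraries. MXI1 rose by 1.78 ± 0.15 in H1703 (adjusted p = 1.09e-08), by 0.73 ± 0.15 in HCC827 (adjusted p = 0.00329) and by 0.63 ± 0.15 in H460 (adjusted p = 0.00307). H441, which had the highest vehicle level, held 404 and 412 with the combination, against 281 and 363 with vehicle, and its change of 0.35 ± 0.15 missed the threshold (adjusted p = 0.223, limma). With the combination the 4 lines averaged 369.5 to 459 normalised reads, against 132 to 322 with vehicle. The rise in H1703 exceeded that in HCC827 by 1.05 ± 0.21 and that in H441 by 1.43 ± 0.21, and H460 minus H1703 was -1.15 ± 0.21 (largest adjusted p = 0.00112). The H460 call did not pass without combination replicate 2 (0.40, adjusted p = 0.084), and the HCC827 call did not pass without vehicle replicate 1 (0.64, adjusted p = 0.0584) or combination replicate 2 (0.65, adjusted p = 0.0608). MXI1 shares 205 exon bases with the antisense gene AL360182.2, which had 187 reads over all libraries against 5197 for MXI1.

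MXD1 (ENSG00000059728.11, chromosome 2, 69897688 to 69942945, plus strand), known for its rise when myeloid and epithelial cells stop dividing and mature, rose in both responsive lines. H460 had 59 and 60 reads with the combination, against 31 and 25 reads with vehicle, or 65.4 ± 5.94 normalised reads with the combination and 25.4 ± 7.67 with vehicle (SD, n = 2 each). H1703 had 50.9 and 64.1 with the combination, against 29.7 and 22.8 with vehicle. In both lines the combination libraries lay above the vehicle libraries and below every vehicle library of HCC827 (153 and 179) and H441 (117.9 and 128.0). The rise was 1.30 ± 0.21 in H460 (adjusted p = 8.48e-05) and 1.06 ± 0.21 in H1703 (adjusted p = 0.000493, limma). HCC827, with 246 and 236 with the combination, changed by 0.54 ± 0.21 and H441 by 0.14 ± 0.21 (adjusted p = 0.127 and 0.833). MXD1 shares 237 exon bases with SNRNP27 on the same strand, which changed by 0.072 in H460 and -0.16 in H1703 (adjusted p = 0.744 and 0.352, limma). SNRNP27 rose by 0.39 in HCC827 (adjusted p = 0.0498) and changed by 0.096 in H441 (adjusted p = 0.789, limma). The part of its reads in the MXD1 values was not tested.

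MNT (ENSG00000070444.15, chromosome 17, 2384060 to 2401118, minus strand), the MAX partner found in dividing and resting cells alike, rose in H1703 and in no other line. There it had 497 and 525 normalised reads with the combination, against 221 and 216 with vehicle. The rise was 1.22 ± 0.12 (adjusted p = 1.16e-07). Its changes were -0.062 ± 0.12 in H460, -0.0067 ± 0.12 in HCC827 and 0.15 ± 0.12 in H441 (lowest adjusted p = 0.591, limma). H1703 responded more than HCC827 by 1.22 ± 0.17 and more than H441 by 1.06 ± 0.17, and H460 minus H1703 was -1.28 ± 0.17 (largest adjusted p = 0.000108). The antisense gene AC006435.1, with 633 reads against 5011 for MNT and 1065 shared exon bases, rose by 1.18 in H1703 (adjusted p = 0.000741), and reads of the pair cannot be told apart.

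MXD4 (ENSG00000123933.17, chromosome 4, 2247432 to 2262294, minus strand), a repressor abundant in cells that have left the cycle, is the only MXD gene of the set with a lower mean log2 value in every line. In H441 it had 132 and 106 normalised reads with the combination, against 230.2 and 214 with vehicle, and in HCC827 214 and 215 with the combination, against 341 and 329 with vehicle. Groups lay apart in both lines. The fall in H441 passed the test at -0.89 ± 0.25 (adjusted p = 0.0426) while HCC827 did not at -0.64 ± 0.25 (adjusted p = 0.117, limma). The HCC827 fall passed with the libraries of that line alone (adjusted p = 0.0254) and with limma voom on recovered reads (-0.64, adjusted p = 0.0227). In H460 the combination libraries, 205 and 85.8, lay on either side of the vehicle libraries, 156 and 132, and the change was -0.11 ± 0.25 (adjusted p = 0.821), beside -0.14 ± 0.25 in H1703 (adjusted p = 0.717). Without combination replicate 1 of H460 the change there was -0.72 (adjusted p = 0.00467), and without combination replicate 2 it was 0.51 (adjusted p = 0.041). The HCC827 fall passed when either of these H460 libraries was left out (adjusted p = 0.00617 and 0.00545). The H441 call did not pass in 14 of the 16 fits without 1 library (adjusted p = 0.0536 to 0.262), and the mean change over the 4 lines, -0.44 ± 0.12, passed (adjusted p = 0.00735).

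MGA (ENSG00000174197.16, chromosome 15, 41621224 to 41773081, plus strand), the largest protein of the network, is the scaffold that joins MAX to the polycomb complex PRC1.6. Its values ran from 1810.5 to 3106 normalised reads over all libraries, and its changes were the narrowest of the set, from -0.18 ± 0.074 in H460 to 0.21 ± 0.074 in H1703. H1703 had 2179.5 and 2130.1 normalised reads with the combination, against 1811 and 1916 with vehicle, and this rise passed the test (adjusted p = 0.0315, limma). It did not pass without any 1 of the 4 H1703 libraries (adjusted p = 0.0511 to 0.2), and after median centring of the libraries it turned to -0.032 (adjusted p = 0.805). The H460 change passed under that centring (-0.38, adjusted p = 0.000966, limma). It also passed with quantile normalisation (-0.19, adjusted p = 0.0423) and with limma voom on recovered reads (-0.19, adjusted p = 0.0432). The same held without vehicle replicate 1 (-0.27) and without combination replicate 2 (-0.25) of that line.

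MLX (ENSG00000108788.11, chromosome 17, 42567068 to 42573239, plus strand) moved in opposite directions in the 2 responsive lines. H1703 had 1423 and 1298 normalised reads with the combination, against 636 and 662 with vehicle. H460 had 643 and 596 with the combination, against 773 and 764 with vehicle. MLX rose by 1.06 ± 0.089 in H1703 (adjusted p = 9.54e-09) and fell by 0.31 ± 0.089 on the log2 scale in H460 (adjusted p = 0.012, limma), and H460 minus H1703 was -1.37 ± 0.13 (adjusted p = 1.7e-07). HCC827 (-0.065 ± 0.089) and H441 (-0.15 ± 0.089) did not pass, and H1703 exceeded them by 1.13 ± 0.13 and 1.22 ± 0.13. Its F statistic for unequal responses, 50.2, was the highest of the 10 members (adjusted p = 1.91e-07). The H460 fall did not pass without vehicle replicate 1 (-0.30, adjusted p = 0.0639) or combination replicate 2 (-0.26, adjusted p = 0.0846) of that line. MLX shares 770 exon bases with PSMC3IP on the other strand, which fell by 1.52 on the log2 scale in H460 (adjusted p = 2.25e-08) and changed by -0.12 in H1703 (adjusted p = 0.545), and the part of its reads in the MLX values was not tested.

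MLXIP (ENSG00000175727.14, chromosome 12, 122078722 to 122147347, plus strand), the partner through which MLX reaches glucose-responsive genes, fell in H460, with 997 and 887 normalised reads with the combination, against 1199.7 and 1122 with vehicle. The change was -0.30 ± 0.10 (adjusted p = 0.0316), beside 0.11 ± 0.10 in H1703, -0.066 ± 0.10 in HCC827 and -0.29 ± 0.10 in H441 (lowest adjusted p = 0.11, limma). The H460 call did not pass without vehicle replicate 1 (-0.25, adjusted p = 0.19), vehicle replicate 2 (-0.35, adjusted p = 0.058) or combination replicate 2 (-0.22, adjusted p = 0.218) of that line.

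Because the pairs compete for MAX and for the same DNA, levels were also set against each other within each library, as ratios of normalised reads per kilobase. The sum of MXD1, MXI1, MXD4 and MNT relative to MYC was 0.277 and 0.287 in the combination libraries of H460, against 0.198 and 0.205 in the vehicle libraries. In H1703, where MYC and 3 of these 4 genes rose, the ratio was 0.320 and 0.316 with the combination, against 0.323 and 0.338 with vehicle. HCC827 had 0.200 and 0.167 with the combination, against 0.221 and 0.242 with vehicle, and H441 had 0.493 and 0.375 with the combination, against 0.474 and 0.494 with vehicle. Means were 0.282 ± 0.00710 with the combination and 0.202 ± 0.00536 with vehicle in H460, higher with the combination by more than the spread of either group, and the combination means were lower in the other 3 lines, where the H441 groups overlapped (SD, n = 2 each). The order in H460 depends on which repressors are summed. MXD3, a further MXD gene outside the 10, had 186 ± 3.46 normalised reads per kilobase with the combination in H460, against 281 ± 28.1 with vehicle, more than the 4 other genes together. With MXD3 added to the sum, an alternative chosen after seeing the data, the ratio was 0.685 and 0.656 with the combination in H460, against 0.771 and 0.751 with vehicle, so that it turned to lower with the combination. In H1703 it was then 0.531 and 0.515 with the combination, against 1.56 and 1.63 with vehicle. The combination means with MXD3 were lower in all 4 lines, and reads of MXD3 cannot be told apart from those of PRELID1 on the other strand. With 2 libraries against 2 an exact permutation test, two-sided, cannot fall below p = 0.333, so none was run.

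**Figure D3:**
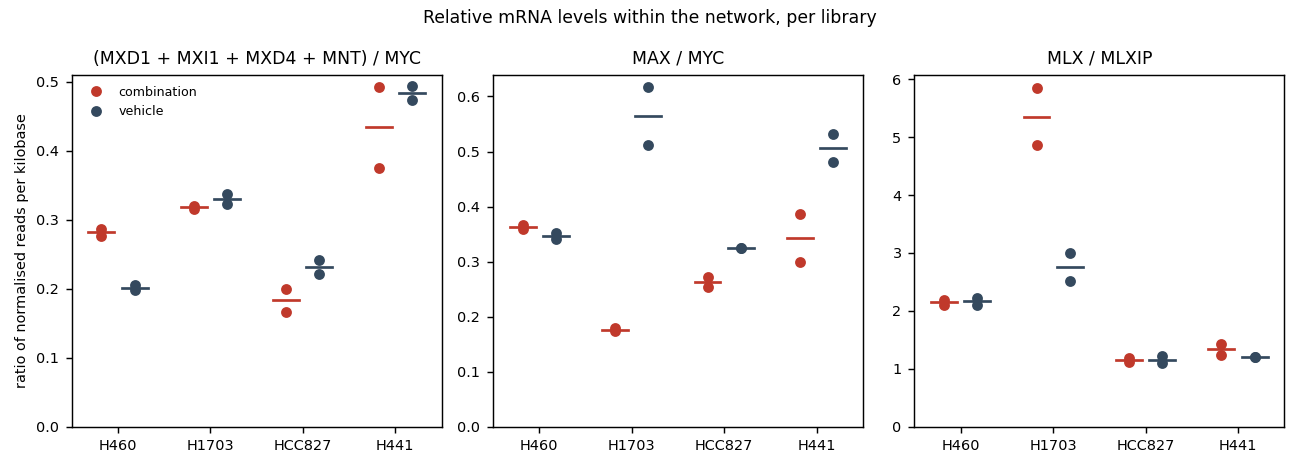
Ratios of normalised reads per kilobase within each library (vertical axes from 0): the sum of MXD1, MXI1, MXD4 and MNT to MYC, MAX to MYC, and MLX to MLXIP. Points are the 2 libraries of a group, combination left in red and vehicle right in dark grey, and bars their means. The first ratio stands out in H460 at 0.282 with the combination and 0.202 with vehicle, an order that turned to 0.671 and 0.761 when MXD3, which is not drawn, was added to the sum. The other ratios stand out in H1703.

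MAX relative to MYC was 0.177 ± 0.00356 with the combination in H1703, against 0.565 ± 0.0749 with vehicle. In H441 it was 0.343 ± 0.0615 with the combination, against 0.506 ± 0.0353 with vehicle. HCC827 had 0.263 ± 0.0136 with the combination, against 0.325 ± 0.000182 with vehicle, and H460 had 0.363 ± 0.00534 with the combination, against 0.346 ± 0.00801 with vehicle. MAX mRNA was thus lower per MYC mRNA with the combination in 3 of 4 lines. MLX relative to MLXIP was 5.35 ± 0.694 with the combination in H1703, against 2.76 ± 0.345 with vehicle, and moved by no more than the spread in H460 (2.15 ± 0.0617 with the combination, 2.16 ± 0.0852 with vehicle) and HCC827 (1.16 ± 0.0460 with the combination, 1.16 ± 0.0896 with vehicle). In H441 it was 1.34 ± 0.132 with the combination, against 1.21 ± 0.00694 with vehicle. Ratios computed with the length of the longest transcript kept these orders, with the first ratio in H460 at 0.321 with the combination and 0.238 with vehicle.

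The second comparison asked whether the responsive lines, H460 and H1703, responded unlike the non-responsive ones. Its p-values rest on the spread between libraries of a line and do not measure the spread between lines of a class. For 5 of 10 members the response was higher in the responsive lines, against 11.2% of all genes higher in that contrast and 23.3% called in either direction, and no member was lower. They were MYCL (1.64 ± 0.37, adjusted p = 0.00265), MXD1 (0.84 ± 0.21, adjusted p = 0.006), MXI1 (0.67 ± 0.15, adjusted p = 0.0024), MNT (0.50 ± 0.12, adjusted p = 0.00425) and MLX (0.48 ± 0.089, adjusted p = 0.000377, all limma). Only for MXD1 did both responsive lines show a called rise and neither non-responsive line one. Its responses in H460 and H1703 exceeded that in H441 (1.16 ± 0.30 and 0.92 ± 0.30, adjusted p = 0.0109 and 0.0318, limma). They did not differ from that in HCC827 (0.76 ± 0.30 and 0.52 ± 0.30, adjusted p = 0.105 and 0.255). The MXD1 rise in HCC827 passed with limma voom on recovered reads (0.53, adjusted p = 0.0202). For MNT and MLX the difference rested on H1703, as H460 changed by -0.062 and -0.31. That of MXI1 rested on H1703 too: the response of H460 minus that of HCC827 was -0.095 ± 0.21 (adjusted p = 0.842) and minus that of H441 0.28 ± 0.21 (adjusted p = 0.439). For MYCL, H460 and H441 had similar values (0.075 ± 0.53 between them, adjusted p = 0.957). The MNT difference did not pass after median centring of the libraries (0.29, adjusted p = 0.096), that of MAX passed as lower under the same centring (-0.36, adjusted p = 0.0231), and that of MXD4 (0.64 ± 0.25) passed without H460 combination replicate 2 (0.95, adjusted p = 0.000109).

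Tested over the 4 lines without their classes, the responses of 8 of 10 members were unequal, against 31.8% of all genes. MXD4 (F = 2.44, adjusted p = 0.199) and MLXIP (F = 3.86, adjusted p = 0.0733) did not pass. By pairs of lines, 6 of 10 members differed in response between H460 and H1703 (19.1% of all genes), 6 between H1703 and HCC827 (20.6%) and 6 between H1703 and H441 (22.9%). Fewer differed between H460 and HCC827 (2, against 14% of all genes), H460 and H441 (1, against 15.8%) and HCC827 and H441 (2, against 2.01%). H1703 differed from each of the other lines for MYC, MXI1, MNT and MLX. The unequal response of MXD1 (F = 6.05) did not pass without H441 vehicle replicate 2 (adjusted p = 0.0583) or H441 combination replicate 2 (adjusted p = 0.0529), nor after median centring (adjusted p = 0.0859) or quantile normalisation (adjusted p = 0.0776). That of MGA (F = 5.33) did not pass in 5 of the 16 fits without 1 library (adjusted p = 0.0504 to 0.102). MXD4 passed without either H460 combination library (adjusted p = 0.0367 without replicate 1 and 0.000355 without replicate 2), and MLXIP passed without H460 combination replicate 1 (adjusted p = 0.0418) or H1703 vehicle replicate 2 (adjusted p = 0.0168).

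Of the network genes outside the 10, MXD3, an MXD gene expressed in dividing cells, and MLXIPL (ChREBP), the liver and fat relative of MLXIP, were in the table. MXD3 had 620.2 and 589 normalised reads with the combination in H1703, against 1436 and 1505 with vehicle, and 973 and 947 with the combination in H460, against 1549 and 1344 with vehicle. It changed by -1.28 ± 0.089 in H1703 and -0.59 ± 0.089 in H460 (adjusted p = 8.5e-10 and 3.92e-05, limma), the opposite direction to MXD1 and MXI1. MXD3 shares 1158 exon bases with PRELID1 on the other strand, whose own changes were -1.38 in H1703 and -0.57 in H460, and reads of the pair cannot be told apart. MLXIPL had 104 reads with the combination in H1703, against 24 with vehicle, and rose by 2.02 ± 0.56 (adjusted p = 0.00769).

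Of 35 genes known to be activated by MYC, all tested, most fell in both responsive lines, where MYC mRNA rose (H1703) or did not pass (H460). In H460 22 fell and 2 rose (median -0.46), where 12.6% of all genes fell, 14.1% rose and the median was 0.046. In H1703 21 fell and 2 rose (median -0.47), where 17.6% of all genes fell, 17.9% rose and the median was 0.082. In HCC827 7 fell and 5 rose (median -0.0004, against 5.5% of all genes lower and 4.42% higher), and in H441 3 fell and 1 rose (median -0.027, against 1.86% lower and 2.77% higher), with all-gene medians of 0. Of these genes 23 responded lower and 1 higher in the responsive lines, where 12.1% of all genes were called lower. The gene with the largest fall, E2F2, a driver of entry into S phase, had 41.0 and 44.9 normalised reads with the combination in H1703, against 357 and 375 with vehicle (-3.01 ± 0.24, adjusted p = 5.35e-09). The mitochondrial chaperone gene HSPE1 changed by -1.37 ± 0.23 in H460 and -1.52 ± 0.23 in H1703, and LDHA, which makes lactate from pyruvate, fell in all 4 lines, from -0.34 in H441 to -1.87 in H1703. The rises in H460, named after their values were seen, were SHMT2, a mitochondrial serine enzyme (1.35 ± 0.087), and the cyclin gene CCND2, with 42 and 26 reads with the combination, against 0 and 0 with vehicle (at least 28.0-fold higher, with 3 reads over the group taken as the floor). SHMT2 also rose in HCC827 (1.02 ± 0.087) and H441 (0.39 ± 0.087).

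**Figure D4:**
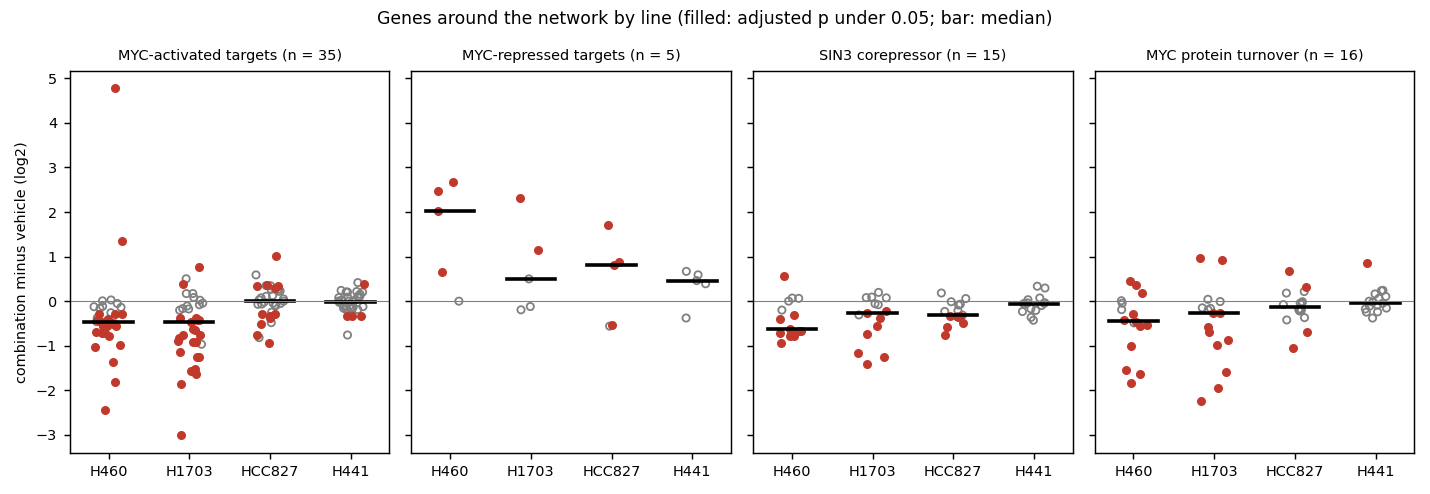
Change with the combination (vertical axis, log2) of the tested genes in 4 lists around the network, by line, filled where the adjusted p was under 0.05, with the median as a bar. In H460 the median is -0.46 for MYC-activated genes, 2.03 for MYC-repressed genes, -0.63 for the SIN3 complex and -0.44 for MYC protein turnover.

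The 5 genes known as repressed by MYC were mostly higher where they passed the test. In H460 4 rose and none fell (14.1% of all genes rose), in HCC827 3 rose and 1 fell (4.42% of all genes rose and 5.5% fell), and in H441 none passed. In H1703 2 of the 5 passed, both higher, which is close to the 35.5% of all genes that passed there (17.9% higher). The stress gene GADD45A rose in H1703 to 1213 ± 221 normalised reads with the combination, against 240.4 ± 31.8 with vehicle (SD, n = 2), a change of 2.32 ± 0.22, and in H460 by 2.03 ± 0.22. NDRG1, a known target of MYC repression and of hypoxia, rose by 2.67 ± 0.17 in H460, 1.16 ± 0.17 in H1703 and 0.81 ± 0.17 in HCC827. The cell cycle inhibitor gene CDKN1A, also a target of p53, rose in H460 (2.47 ± 0.20) and HCC827 (1.71 ± 0.20) and did not pass in H1703 (0.50 ± 0.20, adjusted p = 0.0599, limma).

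The SIN3 complex, which the MXD proteins and MNT recruit, was mostly lower where genes passed the test. Of 15 genes 10 fell and 1 rose in H460 (median -0.63), where 12.6% of all genes fell and the median was 0.046. In H1703 8 fell (median -0.27), where 17.6% of all genes fell and the median was 0.082, and in HCC827 6 fell (median -0.31), where 5.5% of all genes fell and the median was 0. None of the 15 passed in H441. RBBP7, a histone-binding subunit, fell in H460 (-0.93 ± 0.083), H1703 (-1.25 ± 0.083) and HCC827 (-0.75 ± 0.083). SAP30, specific to this complex, changed by -0.79 ± 0.21 in H460 and -1.16 ± 0.21 in H1703, and the histone-binding subunit RBBP4 by -0.67 ± 0.093 and -1.41 ± 0.093. The member that rose in H460, named after its values were seen, was SIN3B (0.56 ± 0.11), while its paralog SIN3A changed by -0.72 ± 0.082. SIN3A was called lower in H460 and also in H1703, where it changed by -0.21 ± 0.082 (adjusted p = 0.0485, limma).

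Of 16 MYC cofactors 6 fell and none rose in H460, where 26.7% of all genes passed (12.6% lower). In H1703 6 fell and 1 rose, where 35.5% of all genes passed (17.6% lower and 17.9% higher). In HCC827 2 fell and 1 rose, against 9.92% of all genes (5.5% lower and 4.42% higher). In H441 1 fell, against 4.63% (1.86% lower). Counted in either direction, the 7 in H1703 and the 1 in H441 are shares near those of all genes. HCFC1, a chromatin adaptor, changed by -1.45 ± 0.076 in H1703 and -0.19 ± 0.076 in H460 (adjusted p = 1.5e-11 and 0.0716, limma). ACTL6A, an actin-related subunit of chromatin complexes, changed by -0.89 ± 0.10 in H1703 and -0.65 ± 0.10 in H460, and WDR5, which helps to hold MYC on chromatin, by -0.81 ± 0.11 and -0.59 ± 0.11. Of 16 genes that set the lifetime of the MYC protein 9 fell and 3 rose in H460, against 26.7% of all genes that passed there (12.6% lower), and 9 fell and 2 rose in H1703, against 35.5% (17.6% lower). In HCC827 2 fell and 2 rose (9.92% of all genes passed), and in H441 1 rose (4.63%). AURKA, a mitotic kinase that shields MYC proteins from degradation, fell to 275 ± 34.1 normalised reads with the combination in H1703, against 1317 ± 109 with vehicle (SD, n = 2). Its changes were -2.25 ± 0.16 in H1703, -1.84 ± 0.16 in H460 and -1.06 ± 0.16 in HCC827. SKP2, a ubiquitin ligase subunit, and CIP2A, an inhibitor of the phosphatase PP2A, changed by -1.95 and -1.58 in H1703 and by -1.54 and -1.64 in H460. AURKA, SKP2 and CIP2A are also genes of dividing cells.

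Of 10 partners of MGA in PRC1.6, 3 fell and 0 rose in H460, where 12.6% of all genes fell. Counted in either direction this is a share near the 26.7% of all genes that passed there. In H1703 3 fell and 3 rose (35.5% of all genes passed, 17.6% lower and 17.9% higher). In HCC827 2 fell (9.92% passed, 5.5% lower), and in H441 1 fell (4.63% passed, 1.86% lower). TFDP1, the pairing partner of E2F factors, fell by 2.15 on the log2 scale in H1703 and 0.89 in H460, beside changes of -0.998 and -0.83 for the heterochromatin gene CBX3 and -0.84 and -0.51 for L3MBTL2, a subunit particular to PRC1.6. Of 9 germline genes that MGA represses in mouse 5 were tested. STK31 rose and TDRKH fell in H460, SMC1B and TDRKH rose in H1703, and none passed in HCC827 or H441, so that 2 of 5 passed in each of H460 and H1703, against 26.7% and 35.5% of all genes. SMC1B, a meiotic cohesin gene named after its values were seen, had 216 and 316 reads with the combination in H1703, against 35 and 72 with vehicle (2.47 ± 0.45, adjusted p = 0.000213, limma).

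Of 4 genes known as targets of the MLXIP and MLX pair 3 were tested, of which 2 passed in H1703 and 1 in H441, against 35.5% and 4.63% of all genes. ARRDC4, an arrestin that responds to glucose, had 27.7 and 44.9 normalised reads with the combination in H1703, against 17.8 and 7.84 with vehicle, and 159.8 and 139 with the combination in H441, against 320.1 and 385 with vehicle. It rose by 1.38 ± 0.29 in H1703 (adjusted p = 0.000694), where MLX rose, and fell by 1.22 ± 0.29 on the log2 scale in H441 (adjusted p = 0.016, limma). KLF10, also a target of TGF-beta, rose in H1703 (1.11 ± 0.26, adjusted p = 0.0073). TXNIP, the best known target, was nearly silent in H1703, with 0 and 1 reads with the combination, against 0 and 0 with vehicle. In the other lines its changes were -0.80 ± 0.37 in H460, -0.78 ± 0.37 in HCC827 and -0.61 ± 0.37 in H441, and none passed (lowest adjusted p = 0.147).

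By Pearson r over the 16 library values, the gene most like each member was named as a description, with points that share lines, treatments and depth. These were AGTPBP1 for MYC (r = 0.948), LYST for MYCL (0.958), LRRC41 for MAX (0.958), PMEPA1 for MXD1 (0.965) and ZNF277 for MXI1 (0.933). They were PHYHIP for MXD4 (0.918), RNF169 for MNT (0.942), DNAH11 for MGA (0.967), IMPDH2 for MLX (0.93) and CACNA1D for MLXIP (0.957). No member was the nearest gene of another.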

How the data were processed

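Per the labels' protocols, RNA was purified with a NucleoSpin kit and stranded total RNA libraries were made with a SMARTer kit. Per the submitters' processing notes, Trimmomatic, STAR and featureCounts were used with hg38 (GRCh38), with no versions. The annotation release, strand setting and transformation tool were not given in the sources used here. As deposited, values are log2-scale variance-stabilised counts, per the file's name and values. Inverted, 100% of them came out as whole reads (tolerance 0.02), with 0.480538 standing for 0 reads.

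Genes were tested where their mean lay at least 1 above the lowest value (23968 of 28951). Limma 3.58.1 in R 4.3.3 was fitted to the 8 group means with trend and robust settings, Benjamini-Hochberg adjustment over all genes tested and a threshold of 0.05. Symbols, positions and lengths came from GENCODE 29, which held 28846 of the IDs, matched without version. Counting intervals are at 95% and cover counting error only. The steps were also run on simulated counts with the same spread setting for every gene and the same change in every line. The real data differ in both respects, and no result given here rests on that run. Tables used Python 3.11.15, numpy 2.4.6, pandas 2.3.3 and scipy 1.17.1, and figures matplotlib 3.10.9.

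The members, the gene lists and the alternatives were chosen with earlier results of these data known. Named genes were the members, MXD3 and MLXIPL, the gene most correlated with each member, the 3 list genes with the largest mean change over the 4 lines among those called, TXNIP and ARRDC4, and any gene said to be named after its values were seen. Replicate numbers are shared between groups, but deviations of same-numbered libraries correlated at only -0.0218 to 0.0319 over 28 pairs of groups, so the numbers were not taken to pair libraries. Alternatives changed the filter, the scaling, the empirical Bayes settings, the replicate block, the input (limma voom on recovered reads), the libraries in the fit, the gene length and, chosen after seeing the data, the repressors summed in a ratio.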

Additional observations from a re-analysis of the deposited data

Results flagged for a closer look

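The responses of the 4 lines differed for 8 members by the F test of the line by treatment interaction in limma, with adjusted p under the threshold in each case. The F statistics were 50.2 for MLX, 28.6 for MYC, 24.6 for MNT, 17.5 for MXI1, 13.2 for MYCL, 7.87 for MAX, 6.05 for MXD1 and 5.33 for MGA. That of MXD1 did not pass after median centring (adjusted p = 0.0859) or quantile normalisation (adjusted p = 0.0776). Outside the 10 members they were 36.3 for MXD3, whose reads cannot be told apart from those of PRELID1, and 5.20 for MLXIPL, a gene of 227 reads over all libraries.

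Responses also differed between the responsive and the non-responsive lines, by the difference of their mean changes on the log2 scale. The spread used was that between libraries and not that between lines. The differences were 1.64 for MYCL, 0.84 for MXD1, 0.67 for MXI1, 0.50 for MNT and 0.48 for MLX. They were -0.79 for MXD3 and 1.83 for MLXIPL.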

How the results depend on the processing

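Direction and call of each member were recomputed under 24 alternatives per line contrast and 23 for the others. For changes and differences, only the scalings, limma voom and the fits without a library of the groups compared could move the value. The other alternatives altered the spread or the adjustment alone, so that the direction was fixed there and only the call could change. Leaving out 1 library gave 1348 member values with the same direction and call, 13 that newly passed, 57 that no longer passed and 22 that changed sign, and the other alternatives gave 621, 15, 27 and 7. Without 1 library the values that changed sign ran from -0.72 to 0.51 for MXD4 in H460 (combination replicates 1 and 2 left out), -0.13 to 0.0077 for MYC in H460, -0.080 to 0.10 for MAX in H460, -0.19 to 0.069 for MNT in H460, -0.045 to 0.27 for MLXIP in H1703, -0.088 to 0.074 for MNT in HCC827 and -0.16 to 0.026 for MLXIP in HCC827. Those of MGA ran from -0.010 to 0.031 in the mean over the lines and from -0.037 to 0.047 for the class difference. With median centring the sign turned for MAX in H460 (-0.18), MGA (-0.032) and MLXIP (-0.13) in H1703, MGA in the mean over the lines (-0.10) and the class differences of MGA (-0.20) and MLXIP (-0.13), and with limma voom for the class difference of MGA (-0.0014). Of these values only those of MXD4 in H460, which passed without either combination replicate, and MGA in H1703, which passed as deposited, were called on either side, and the cause was not tested. The rises of MYC, MYCL, MXD1, MXI1, MNT and MLX in H1703 and of MXD1 in H460 passed in all 24 alternatives.

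With only the libraries of a line, which leaves fewer samples, 3626 genes and 1 member were called in H460 (6398 and 5 in the fit of all libraries), 1299 genes in HCC827 (2378), and 0 genes and 0 members in H441 (1110 and 2), where 4622 genes had an unadjusted limma p under 0.05. With neither trend nor robust settings 1183 genes and 1 member were called in HCC827, 364 genes and 1 member in H441, and 5 members in the mean over the lines (8). Limma voom on recovered reads called 5 members in HCC827 (2). In H441 1 member was called with no filter and 1 with quantile normalisation. Quantile normalisation also ended the calls of MLXIP in H460 and in the mean over the lines and of MAX in H1703. The fit with neither trend nor robust settings ended those of MLXIP in H460, MAX and MGA in H1703, MYC in HCC827, MXD4 in H441, MXD4, MLX and MLXIP in the mean over the lines, and the unequal responses of MAX and MGA.

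Without 1 library, 4886 to 6392 genes were called in H460, 6281 to 8785 in H1703, 1013 to 2740 in HCC827 (1013 without combination replicate 2, 1214 and 1403 without vehicle replicate 1 and 2), and 499 to 1432 in H441 (499 to 575 without a library of that line). Over the lines 7720 to 8340 genes were called, and 4880 to 5615 for the class difference, 6437 to 7790 for unequal responses, 16703 to 17710 for vehicle levels between lines and 12456 to 13696 between classes. Members called were 3 to 6 in H460, 6 to 8 in H1703, 0 to 3 in HCC827 and 0 to 2 in H441, 6 to 8 over the lines, 5 to 6 for the class difference and 7 to 9 for unequal responses. With the replicate number as a replicate block 6422, 8516, 2434 and 1150 genes were called in H460, H1703, HCC827 and H441, with 5, 8, 2 and 2 members, and no member call changed. Median centring moved the all-gene median to -0.15 in H460, where 32.6% of called genes were higher against 52.7% as deposited, and to -0.16 in H1703 (31.1% against 50.4%). Over the lines it gave 34.6% against 52.4%, and for the class difference 23.9% against 48%. Under it 28 MYC-activated genes fell in H460 and 26 in H1703, and the PRC1.6 median in H1703 turned to -0.12. Without 1 library the MYC-activated genes that fell numbered 17 to 23 in H460 and 19 to 21 in H1703. At these depths MYCL in H460 and MLXIPL outside H1703 rest on few reads.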
